A study of Mus musculus with 83 samples.

Results

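RNA polymerase II (Pol II) was mapped by CUT&Tag in heat-shocked mouse embryonic stem cells with and without induced degradation of the TATA-binding protein (TBP), and the comparison described here is the effect of TBP depletion during heat shock. It rests on 4 Pol II libraries of C64 cells from 1 run, 2 of heat shock + IAA and 2 of heat shock alone, of 24 Pol II libraries with gene counts in the series. Of 27752 genes in the count table, 16628 carried enough reads in these 4 libraries to be tested, and all of them are members of the comparison.

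C64 is a line derived from JM8.N4 cells in which both copies of Tbp carry an auxin-inducible degron, so that indole-3-acetic acid (IAA) leads to degradation of the TBP protein. By the study's description the degradation is incomplete, so the IAA cells are TBP-depleted cells in which some TBP remains. The heat shock + IAA cells received 500 µM IAA for 6 h and then 30 min at 42 °C with IAA still present. The heat shock cells were the same line, with the same degron, given 30 min at 42 °C without IAA. All 4 libraries were made with an antibody to Pol II (CST D1G3K), in which a tethered transposase inserts adapters next to the bound protein. The study calls the 2 libraries of a group biological replicates, and the sources used here do not say whether each came from its own culture. The p-values rest on the spread between these libraries. That spread was estimated from all genes together, after the difference between 2 library sets described below was taken out.

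TBP is the subunit of TFIID that contacts the TATA element of promoters, and it also belongs to the initiation complexes of Pol I and Pol III. Heat shock activates HSF1, which releases paused Pol II into genes of molecular chaperones. These proteins hold, refold or hand over proteins that have lost their shape: HSP70 and HSP90 proteins do the folding work, J-domain proteins deliver clients to HSP70, HSP110 proteins exchange its nucleotide, and a separate set, led by Hspa5, works in the endoplasmic reticulum.

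Most genes had similar Pol II with and without IAA during heat shock, and the genes that changed mostly had less. Pol II was lower in heat shock + IAA at 91 genes, which is 0.547% of those tested, and higher at 15 genes, which is 0.0902%, or 106 genes and 0.637% in either direction (edgeR quasi-likelihood test with the library set as a block, Benjamini-Hochberg adjusted p under 0.05). The lower genes had log2 fold changes of -1.53 to -0.37 with a median of -0.66, and 7 of them changed by more than 2-fold. The higher genes had log2 fold changes of 0.43 to 1.85, with 5 past 2-fold. For 13551 genes, or 81.5% of those tested, the 95% interval lay wholly within 2-fold in either direction, relative to the other genes. These intervals also rest on the set as a block. Without the block the standard error was 0.36 in place of 0.11 for Hsp90aa1 and 0.44 in place of 0.17 for Hspa1b. For Bhlhe41 it was 0.57 in place of 0.54. The median over all genes was -0.01.

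**Figure D1:**
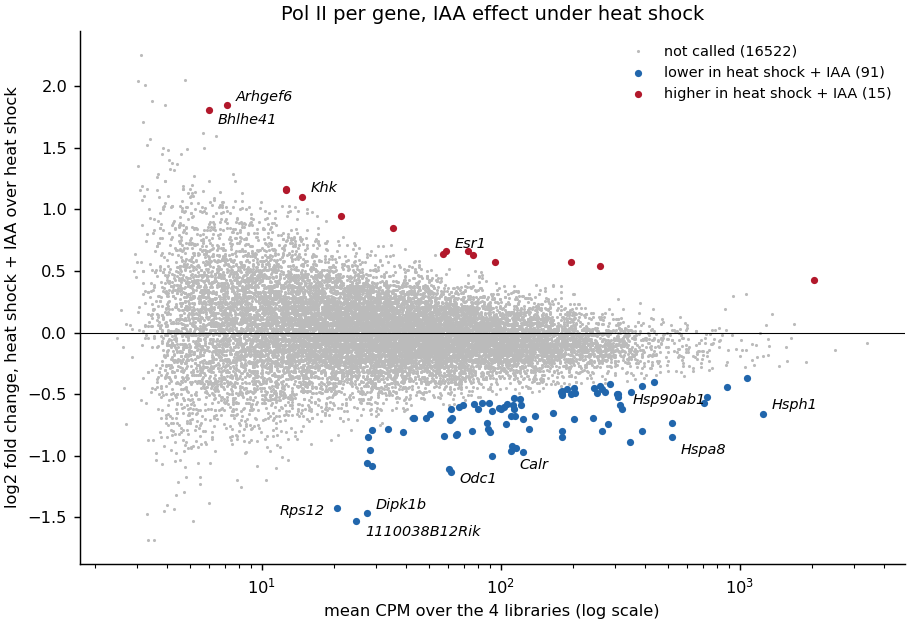
Log2 fold change of heat shock + IAA over heat shock against the mean count-per-million value (CPM, reads on a gene over the scaled library size) of the 4 libraries on a log scale, 1 point per gene. The 91 genes called lower (blue) lie mainly at high CPM, while most of the 16628 genes (grey) lie around 0.

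Every one of these calls depends on how the libraries are matched. The 4 count columns fall into 2 name sets: set a has names without a 2 after the condition and set b has names with it, and each set holds 1 heat shock + IAA and 1 heat shock library. Without the set as a block no gene was called (0 higher and 0 lower, 174 genes with an unadjusted p under 0.05), and edgeR's likelihood-ratio test and DESeq2 also called 0 when the block was left out. Leaving out 1 library at a time was done only without the block or together with the unheated libraries of the run. Those fits called 0 genes with every library present, so they cannot show whether the calls rest on a single library. With the block, 1 residual degree of freedom remains and the spread is taken wholly from all genes together. A joint fit that also uses the unheated control and IAA libraries of the same run, with the block, called 0 genes (838 at an unadjusted p under 0.05), and its lowest adjusted p was 0.146, for Odc1. In that joint fit 84 of the 91 lower genes had a negative fold change with an unadjusted p under 0.05, against 4.96% of the tested genes in either direction, but the 91 genes were chosen on the same 4 heat shock libraries, so this share is fixed in large part by the choice and is no further evidence for them. DESeq2 with the block called 29 lower and 2 higher genes, each of them among the 91 and the 15. It gave no adjusted p to many genes, among them Odc1, Rps9 and Dipk1b, and those could not be called in it. The words higher and lower below, and the standard errors and intervals of the heat shock comparison, refer to the blocked fit of the 4 libraries.

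The 2 sets gave like ratios for the called genes, as the calling requires, and unlike ratios for most others. All 91 lower genes were below 0 in both sets and all 15 higher genes were above 0 in both. Over all tested genes, 53% had the same sign in both sets, and the ratios of the 2 sets, which share no library, had a Pearson correlation of 0.11 (Spearman 0.11) across 16628 genes, which are not independent replicates. In CPM the 2 heat shock + IAA libraries lay wholly below the 2 heat shock libraries at 61 of the 91 lower genes, where 11.2% of all tested genes did so. They lay wholly above at 10 of the 15 higher genes, where 12.5% of all tested genes did so. The called genes were chosen on these same libraries, so both shares follow in large part from the choice and are no further evidence.

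**Figure D2:**
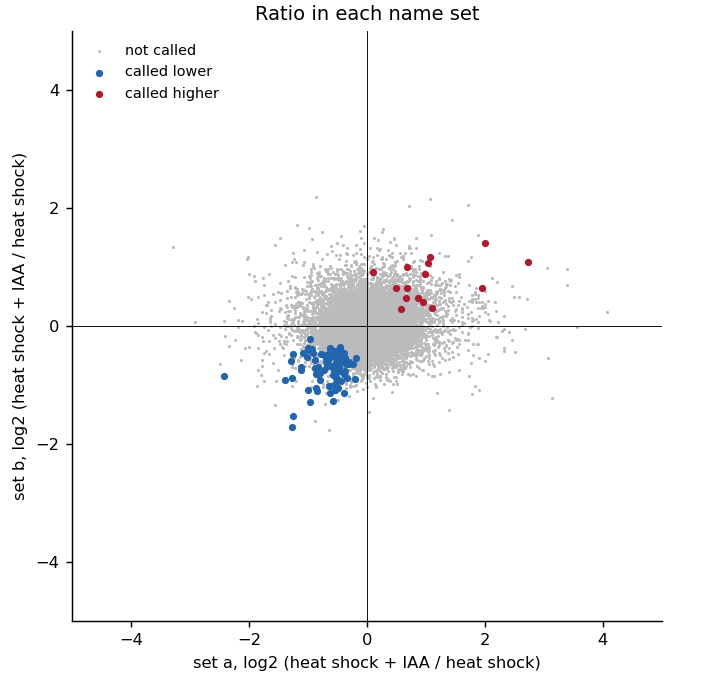
Log2 ratio of heat shock + IAA over heat shock in set a (x axis) and in set b (y axis), with 0.5 CPM added to each value, 1 point per gene. The called genes lie at the lower left and upper right, and the grey cloud of other genes shows little relation between the sets.

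The gene with the most negative change among the lower genes was 1110038B12Rik, a non-coding host gene of small nucleolar RNAs (chr17:34950238-34952471, GRCm38). It had 7.15 and 18.1 CPM in the heat shock + IAA libraries (set a, then set b), against 40.9 and 32.7 CPM in the heat shock libraries. The groups did not overlap, and the log2 fold change was -1.53 ± 0.26 (SE, adjusted p = 3.6e-07). Dipk1b followed with 21.7 and 8.04 CPM in heat shock + IAA, against 52.9 and 27.4 CPM in heat shock (-1.46 ± 0.25, 6.14e-07). Here set a was higher than set b within each group, so that the fold is clearer within a set than between the groups. Odc1, ornithine decarboxylase and the first step of polyamine synthesis, had 28.4 and 49.6 CPM in heat shock + IAA, against 74.7 and 93.9 CPM in heat shock (-1.13 ± 0.18, 7.93e-08). Rps12, a protein of the small ribosomal subunit, had 13.0 and 9.44 CPM in heat shock + IAA, against 31.6 and 28.3 CPM in heat shock (-1.42 ± 0.28, 4.07e-05). Its libraries agreed closely within each group and stood well apart between them.

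Promoter sequences are given here because TBP is named for the element TATAA. The sequences are the 120 bases before a RefSeq start in GRCm38.p6, 5′ to 3′ on the gene's strand, with each TATAA in capitals. 1110038B12Rik and Hsph1 had 2 promoter entries each. For such genes an entry with TATAA in the narrow window counted below was printed by preference. The TATAA shown for 1110038B12Rik thus belongs to an entry chosen with that preference, and its other entry is not shown. The first 5 genes were lower in heat shock + IAA, and the last, Hspa1b, was not called.
1110038B12Rik (chr17:34952472-34952591, minus strand): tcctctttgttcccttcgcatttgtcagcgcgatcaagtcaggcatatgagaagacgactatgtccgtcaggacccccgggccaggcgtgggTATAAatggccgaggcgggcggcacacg
Hspa5 (chr2:34771970-34772089, plus strand): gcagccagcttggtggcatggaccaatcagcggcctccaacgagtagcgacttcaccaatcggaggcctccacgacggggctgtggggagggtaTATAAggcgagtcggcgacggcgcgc
Rps9 (chr7:3703921-3704040, plus strand): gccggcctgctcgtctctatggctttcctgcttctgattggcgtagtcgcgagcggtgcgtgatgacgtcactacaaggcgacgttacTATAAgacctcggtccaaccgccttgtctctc
Hsph1 (chr5:149636337-149636456, minus strand): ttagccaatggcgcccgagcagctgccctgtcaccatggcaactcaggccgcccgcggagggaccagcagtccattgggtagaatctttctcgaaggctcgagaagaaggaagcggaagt
Odc1 (chr12:17544753-17544872, plus strand): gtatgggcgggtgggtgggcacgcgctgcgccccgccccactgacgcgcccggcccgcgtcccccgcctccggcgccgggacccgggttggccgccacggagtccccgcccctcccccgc
Hspa1b (chr17:34959239-34959358, minus strand): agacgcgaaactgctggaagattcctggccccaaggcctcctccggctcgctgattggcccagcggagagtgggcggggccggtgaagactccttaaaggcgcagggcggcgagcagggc

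In these windows TATAA began 28 bases before the start in 1110038B12Rik, 26 in Hspa5 and 32 in Rps9, and the other 3 windows held none, which says only that these letters are not there. RefSeq promoters could be matched for 76 of the 91 lower genes, and 11 of these (14.5%) held TATAA on the gene's strand with its first base between -40 and -20 of a start. The share was 3.23% over the 12896 tested genes with a promoter entry, 0 of 11 among higher genes, and 4.22% over all 27025 genes of the promoter table. Anywhere in the 300-base windows (250 before the start to 50 after) and on either strand, TATAA or its reverse complement TTATA was present in 36.8% of the lower genes with an entry and in 18% of the tested genes with one. The other lower genes with TATAA between -40 and -20 were Ddx3x, Elavl3, Fscn1, Mknk2, Sdc4, Slc7a1, Snhg12 and Tfcp2l1. Hspa8 and Hsp90ab1 had no entry.

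The authors' own lists of TATA and TATA-less genes gave a like description. Of 3643 tested genes on the TATA list, 45 were lower (1.24%) and 6 higher (0.165%), and of 11950 on the TATA-less list, 42 were lower (0.351%) and 8 higher (0.0669%). The median log2 fold change was -0.01 on either list, so the typical gene of the TATA list did not stand apart from that of the TATA-less list. Median CPM was 28.6 on the TATA list and 32.1 on the TATA-less list. 1110038B12Rik, with TATAA at -28 of the start printed above, is on the TATA-less list. In the other comparisons of IAA with its own control, lower calls took 2.22% of the TATA list against 0.787% of the TATA-less list in C64 after 6 h, 2.71% against 1.11% after 16 h, 1.31% against 0.509% under retinoic acid, and 4.61% against 4.03% in B8 cells. No test of these shares was made.

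Among the cytosolic chaperones, the constitutive HSP70 gene Hspa8, the heat-inducible HSP110 gene Hsph1 and the constitutive HSP90 gene Hsp90ab1 were lower, while Hspa1a, Hspa1b, Hsp90aa1 and Dnajb1, which heat also induces, were not called. Of 49 tested genes of HSP70 and HSP110, HSP90 and its partners, J-domain proteins, small heat shock proteins, BAG proteins and heat shock factors, 3 were lower (6.12%) and 0 higher. Over all tested genes 0.547% were lower. Of the 49, 44 had a 95% interval within 2-fold, against 81.5% of all tested genes, and their median was -0.13. Lower calls were commoner at high CPM, with 39 of 1663 genes in the highest 10% and 0 of 1663 in the lowest. The list shares here and below are not adjusted for CPM. Hspa8, which encodes the constitutive HSP70 protein HSC70, had 398 and 342 CPM in heat shock + IAA, against 691 and 641 CPM in heat shock (-0.85 ± 0.11, adjusted p = 1.09e-12). The ratio was close in both sets and the groups stood far apart.

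Hsph1, the main HSP110 gene, was among the most occupied genes of the heat-shocked cells. It had 879 and 1044 CPM in heat shock + IAA, against 1258 and 1817 CPM in heat shock (-0.66 ± 0.09, 2.49e-10). In cells without heat shock it had 72.7 and 58.3 CPM with IAA and 89.6 and 85.9 CPM in control, scaled within those libraries. Pol II over Hsph1 in heat shock + IAA thus lay below the heat shock libraries and far above every unheated library. Hsp90ab1, the constitutive HSP90, had 247 and 257 CPM in heat shock + IAA, against 392 and 384 CPM in heat shock (-0.62 ± 0.12, 1.49e-05).

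Unlike Hsph1, 4 other heat-inducible genes did not pass the test, and their groups overlapped. Whether their change differed from that of Hsph1 was not tested. Hsp90aa1, the inducible HSP90, had 383 and 582 CPM in heat shock + IAA, against 408 and 641 CPM in heat shock, and its 95% interval ran from -0.33 to 0.09. Dnajb1, the J-domain protein that serves inducible HSP70, had 56.8 and 98.2 CPM in heat shock + IAA, against 56.2 and 115 CPM in heat shock (interval -0.44 to 0.19). Hspa1b, an inducible HSP70, had 36.6 and 74.5 CPM in heat shock + IAA, against 52.1 and 93.7 CPM in heat shock (-0.40 ± 0.17, adjusted p = 0.395, interval -0.74 to -0.06). Hspa1a, its near-identical copy, had 13.2 and 23.9 CPM in heat shock + IAA and 10.8 and 35.6 CPM in heat shock (interval -0.79 to 0.22), and reads may have been split between the 2 genes in ways the table does not show. In all 4 genes set b was higher than set a in both groups.

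**Figure D3:**
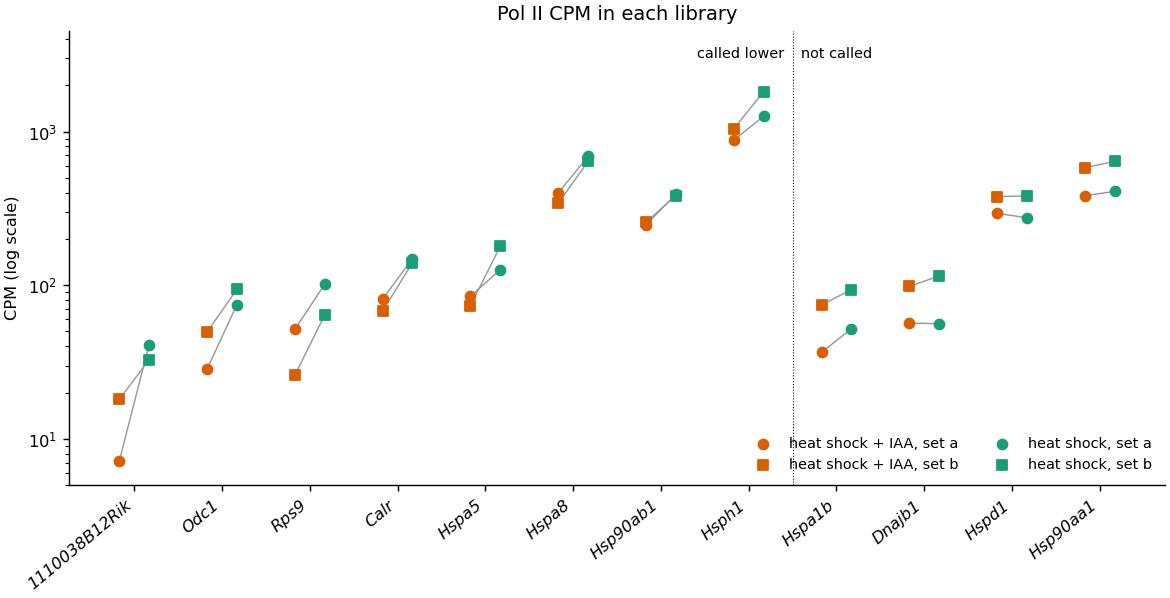
Pol II CPM on a log scale in each of the 4 libraries for 12 genes, with heat shock + IAA (orange) to the left of heat shock (green), circles for set a, squares for set b, and a line joining the libraries of a set. In the 8 genes called lower both lines climb from heat shock + IAA to heat shock, and in the 4 genes not called the lines are nearly level or the groups overlap.

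Further cochaperones were within 2-fold. Stip1, which links HSP70 to HSP90, had 206 and 198 CPM in heat shock + IAA, against 206 and 242 CPM in heat shock (-0.15 ± 0.13, 0.792). All 13 J-domain genes were within 2-fold, with log2 fold changes from -0.34 to 0.17, and none was called. Hspa4l, an HSP110 relative, had the highest value of its list at 0.34 ± 0.15 (adjusted p = 0.403). Hsf1, the gene of the heat shock factor itself, had 77.6 and 89.0 CPM in heat shock + IAA, against 90.6 and 96.0 CPM in heat shock (-0.16 ± 0.16 with adjusted p = 0.831).

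Of 14 chaperone genes of the mitochondria and the endoplasmic reticulum, 3 were lower (21.4%, against 0.547% of all tested genes) and none higher. All 3 belong to the endoplasmic reticulum. Hspa5, the HSP70 of the endoplasmic reticulum, had 84.8 and 73.5 CPM in heat shock + IAA, against 126 and 179 CPM in heat shock (-0.94 ± 0.15, adjusted p = 6.13e-08). Calr, the calcium-binding lectin chaperone calreticulin, had 81.5 and 67.7 CPM in heat shock + IAA, against 149 and 141 CPM in heat shock (-0.96 ± 0.15, 4.57e-08). Pdia6, a protein disulfide isomerase, had 53.3 and 40.8 CPM in heat shock + IAA, against 83.3 and 83.0 CPM in heat shock (-0.83 ± 0.17, 2.88e-04). The groups of these 3 genes did not overlap. P4hb, another disulfide isomerase that was not on the list and is named after its value was seen, was lower too (-0.70 ± 0.13, 7.57e-06). Hsp90b1 had -0.39 ± 0.18 and Canx -0.09 ± 0.13, neither of them called. Of the mitochondrial chaperones, Hspd1 had 294 and 378 CPM in heat shock + IAA, against 275 and 381 CPM in heat shock, with an interval of -0.19 to 0.27.

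Ribosomal protein genes had the lowest median of the functional lists. Of 73 tested, 8 were lower (11%, against 0.547% of all tested genes) and 0 higher. Values below 0 were found in 65 of them, and the median was -0.40. Rps9, of the small subunit, had 51.6 and 25.9 CPM in heat shock + IAA, against 101 and 63.9 CPM in heat shock (-1.11 ± 0.18, adjusted p = 1.52e-07). Rpl3, of the large subunit, had 193 and 72.9 CPM in heat shock + IAA, against 296 and 160 CPM in heat shock (-0.85 ± 0.13, 6.09e-08), so that its groups overlapped while each set was lower. The others were Rps12, Rps15a, Rps3, Rpl23, Rpl4 and Rpl7a, with values of -1.42 for Rps12 and of -0.79 to -0.52 for the rest. The list median was -0.31 in set a and -0.45 in set b, and -0.16 without the set b heat shock + IAA library in the 8-library fit. Rps15a (-0.52 ± 0.12) rested on set b: it had 409 and 126 CPM in heat shock + IAA, against 470 and 236 CPM in heat shock, and its value turned to 0.13 without the set b heat shock + IAA library in the 8-library fit.

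Translation factors and hosts of small nucleolar RNAs were also lower in part. Of 26 translation factor genes, 4 were lower (15.4%, against 0.547% of all tested genes), and the list had a median of -0.24. Pabpc4, a cytoplasmic poly(A)-binding protein, had 86.7 and 64.9 CPM in heat shock + IAA, against 188 and 106 CPM in heat shock (-0.92 ± 0.15, adjusted p = 1.52e-07). Eif4a2, a helicase of translation initiation, had 91.0 and 42.0 CPM in heat shock + IAA, against 142 and 85.3 CPM in heat shock (-0.81 ± 0.16, 6.58e-05). Tpt1 (-0.78 ± 0.16) and Eif1 (-0.59 ± 0.14) were the others. Of 22 protein-coding hosts of small nucleolar RNAs, 5 were lower (22.7%): Hspa8, Pabpc4, Eif4a2, Taf1d (-0.69 ± 0.12) and Snx5 (-0.51 ± 0.13). Of 14 non-coding hosts, 3 were lower (21.4%): 1110038B12Rik, Gas5 (-0.74 ± 0.15) and Snhg12 (-0.78 ± 0.22). The non-coding hosts had a median of -0.04 in set a and -0.27 in set b, with a fitted median of -0.24, and the median was 0.11 without the set b heat shock + IAA library in the 8-library fit.

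**Figure D4:**
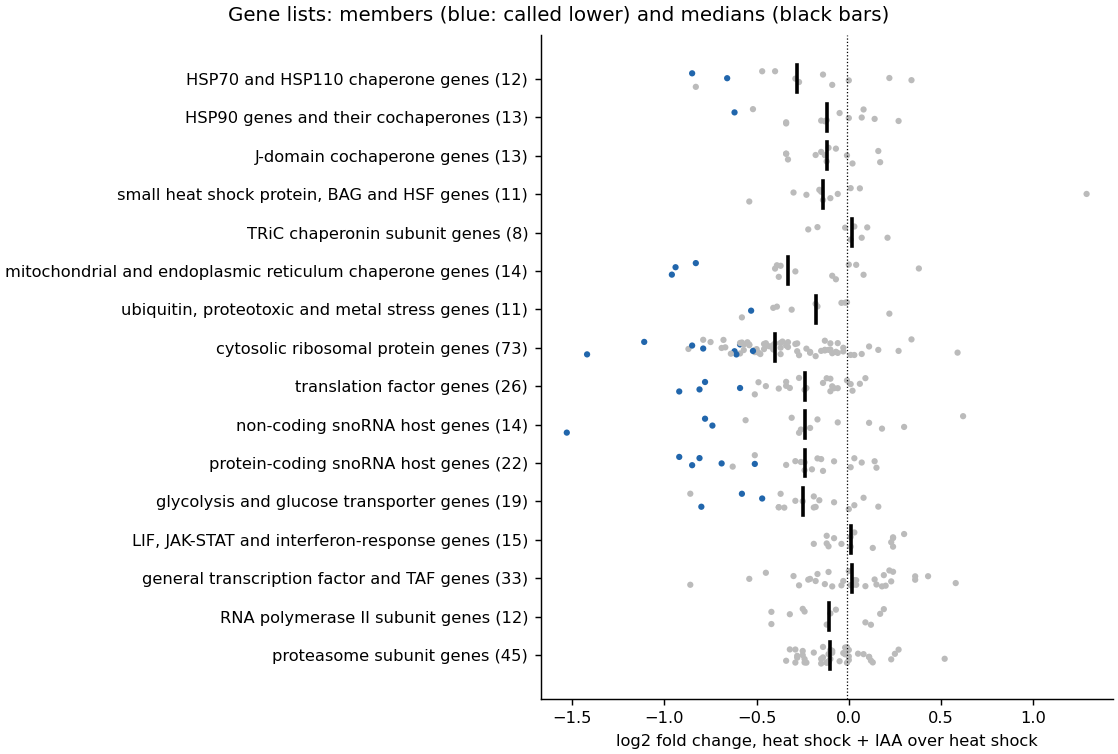
Log2 fold change of heat shock + IAA over heat shock for each tested gene of 16 lists, 1 point per gene (blue where called lower) with the list median as a black bar and the number tested beside the name. The dotted line is the median of all genes, and ribosomal protein genes have the lowest list median at -0.40.

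A few genes of glucose uptake and energy metabolism were lower as well. Slc2a1, the glucose transporter GLUT1, had 240 and 153 CPM in heat shock + IAA, against 349 and 324 CPM in heat shock (-0.80 ± 0.12, adjusted p = 1.13e-08). Slc2a3, the transporter GLUT3, had 153 and 150 CPM in heat shock + IAA, against 207 and 214 CPM in heat shock (-0.47 ± 0.13, 0.0287). Ak4, a mitochondrial adenylate kinase, was at -0.58 ± 0.15. These were the 3 of 19 glycolysis and glucose transporter genes that were lower (15.8%, against 0.547% of all tested genes), and the list median was -0.25. Tfcp2l1, a transcription factor of naive pluripotency, had 1050 and 827 CPM in heat shock + IAA, against 1197 and 1212 CPM in heat shock (-0.37 ± 0.09, adjusted p = 0.00934), the 1 gene called of 26 pluripotency genes tested.

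Most other machinery of transcription was not called, but only 0.637% of all tested genes were called in either direction. Counts of 0 in lists of the sizes below thus do not set them apart from all tested genes. Of 25 genes of Pol I and Pol III factors, 1 was lower, Taf1d, which encodes a TAF of the Pol I initiation factor SL1, with 278 and 105 CPM in heat shock + IAA, against 399.5 and 195 CPM in heat shock (-0.69 ± 0.12, adjusted p = 6.27e-06). Its groups overlapped, and each set was lower. The lower share of that list was 4%, against 0.547% of all tested genes, and its median was -0.18. Of 33 general transcription factor and TAF genes 0 were lower and 0 higher, with a median of 0.02 and 29 within 2-fold. No gene was called either among 12 Pol II subunit genes (median -0.11), 24 genes of pausing and elongation (median -0.02) and 45 proteasome genes (median -0.10). The 15 LIF, JAK-STAT and interferon-response genes were all within 2-fold with a median of 0.01. Stat3, the transcription factor that acts downstream of LIF, had 981 and 1094 CPM in heat shock + IAA, against 814 and 871 CPM in heat shock (0.30 ± 0.10, adjusted p = 0.112), and Icam1 had 198 and 256 CPM in heat shock + IAA, against 185 and 268 CPM in heat shock. In all, 31 of the 91 lower genes and 0 of the 15 higher genes were on 1 or more of the 27 functional lists, and 13 of those lists had no called member. The share of all tested genes on these lists was not worked out, so the counts of 31 and 0 have no background to be read against.

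The lower genes were short and densely occupied. Their median CPM was 115, against 29.9 over all tested genes, and per kb of gene they had a median of 7.68 CPM, against 1.27 over all tested genes. Median gene length was 15 kb for the lower genes, 107 kb for the higher genes and 26.1 kb for all. The highest 10% of genes by mean CPM held 39 of the 91 lower genes, and the lowest 10% held 0. A test of counts passes small changes more readily where reads are many, so the calling itself favours high CPM. The median log2 fold change of all genes moved with abundance, at 0.11 in the lowest 10% and -0.09 in the highest 10%. With offsets that remove that trend, added after it was seen, 66 genes were lower, all of them among the 91, and 23 were higher, 10 of them among the 15.

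Several lower genes were neighbours. Rabepk and Hspa5 lie 8 bases apart, end to end on facing strands, and Rabepk had 105 and 87.6 CPM in heat shock + IAA, against 148 and 182 CPM in heat shock (-0.78 ± 0.14). Slc35b2 and Hsp90ab1 lie 103 bases apart, end to end on facing strands, with values of -0.59 and -0.62. 2410006H16Rik and Lrrc75a lie 76 bases apart (-0.69 and -0.89), Chmp2a and Ube2m lie 312 bases apart (-0.54 and -0.71), and Eif4a2 and Rfc4 overlap by 194 bases (-0.81 and -0.82). In all, 6 pairs of genes called lower lay within 5 kb of each other. Reads were counted over whole genes on either strand, so the table does not separate reads of 1 gene that reach into the next, and their part in these values was not tested. Plppr3 (-0.97 ± 0.15) shares 30.3% of its length with Ptbp1, which was not called (-0.34 ± 0.15).

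The 15 higher genes included genes of few reads. Arhgef6, a guanine nucleotide exchange factor, had 11.5 and 10.8 CPM in heat shock + IAA, against 1.29 and 4.82 CPM in heat shock (1.85 ± 0.50, adjusted p = 0.0105). Bhlhe41, a transcriptional repressor of the circadian clock, had 8.45 and 10.2 CPM in heat shock + IAA, against 1.72 and 3.56 CPM in heat shock (1.81 ± 0.54, 0.0403). Khk, fructokinase, had 18.6 and 21.3 CPM in heat shock + IAA, against 8.82 and 9.85 CPM in heat shock (1.10 ± 0.31, 0.0417). The groups of these 3 genes did not overlap. Esr1, the gene of estrogen receptor alpha, had 70.0 and 73.9 CPM in heat shock + IAA, against 43.5 and 47.4 CPM in heat shock (0.66 ± 0.18, 0.0213). Rnf144a (0.95 ± 0.26), Fam120c (0.85 ± 0.21), Zfp804a (1.17 ± 0.34), Hoxc12 (1.16 ± 0.34), Senp3 (0.66 ± 0.17) and Smoc1 (0.57 ± 0.15) also had groups that did not overlap. In 2 others the libraries of a group differed widely: Chl1 had 540 and 4000 CPM in heat shock + IAA, against 362 and 3270 CPM in heat shock (0.43 ± 0.09), and CT010467.2 had 164 and 470 CPM in heat shock + IAA, against 153 and 248 CPM in heat shock (0.54 ± 0.12).

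The lower genes were mostly below 0 in cells that were not heat shocked. None of the libraries compared next is part of the heat shock comparison: C64 after 6 h of IAA (same run), C64 after 16 h of IAA, C64 under retinoic acid with and without IAA, and B8, a C64 derivative lacking Tbpl1, after 6 h of IAA, each against its own control without IAA. All 91 lower genes were measured in each. They were below 0 for 89 genes in C64 at 6 h (median -0.47), 88 genes at 16 h (median -0.50), 82 genes under retinoic acid (median -0.42) and 82 genes in B8 (median -0.56). Over all genes tested there, 49.2%, 48.2%, 46.9% and 52.4% were below 0. Of the 91, 72 were below 0 in all 4 comparisons, against 11.1% of the 13209 genes measured in all 4 and 25.4% of the 1663 genes in the highest 10% by CPM.

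Many of these values passed the test in their own comparison. Of the 91 lower genes, 58 were called lower at 6 h, where 1.08% of tested genes were. At 16 h 56 were called lower (1.41% of tested genes), under retinoic acid 38 (0.663%) and in B8 44 (4.08%), and 1 of the 91 was called higher in any of them, under retinoic acid. The shares of all tested genes are not matched for CPM, which was high in the 91. The fits at 6 h, at 16 h and under retinoic acid also used a block and left 1 residual degree of freedom. Pabpc4 had -1.68 ± 0.10 at 6 h and Odc1 had -1.02 ± 0.12. Hsph1, far less occupied without heat shock, had -0.43 ± 0.12 at 6 h. The 15 higher genes showed less of this: 12 were above 0 at 6 h, 11 at 16 h, 11 under retinoic acid and 5 of 13 measured in B8, and 2 were called higher at 6 h (0.124% of tested genes), 1 at 16 h (0.716%), 0 under retinoic acid (0.438%) and 3 in B8 (2.72%). Senp3, a SUMO protease, was above 0 in each, with 0.63 at 6 h and 0.94 in B8.

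A few lower genes had other values elsewhere. Rps12, at -1.42 ± 0.28 under heat shock, had -0.61 ± 0.17 at 6 h, -0.17 at 16 h, -0.01 under retinoic acid and -0.02 in B8. Plppr3 had -0.10 at 6 h, -0.09 at 16 h, 0.09 under retinoic acid and -0.79 in B8. Calr was below 0 in the C64 comparisons and at 0.22 in B8.

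**Figure D5:**
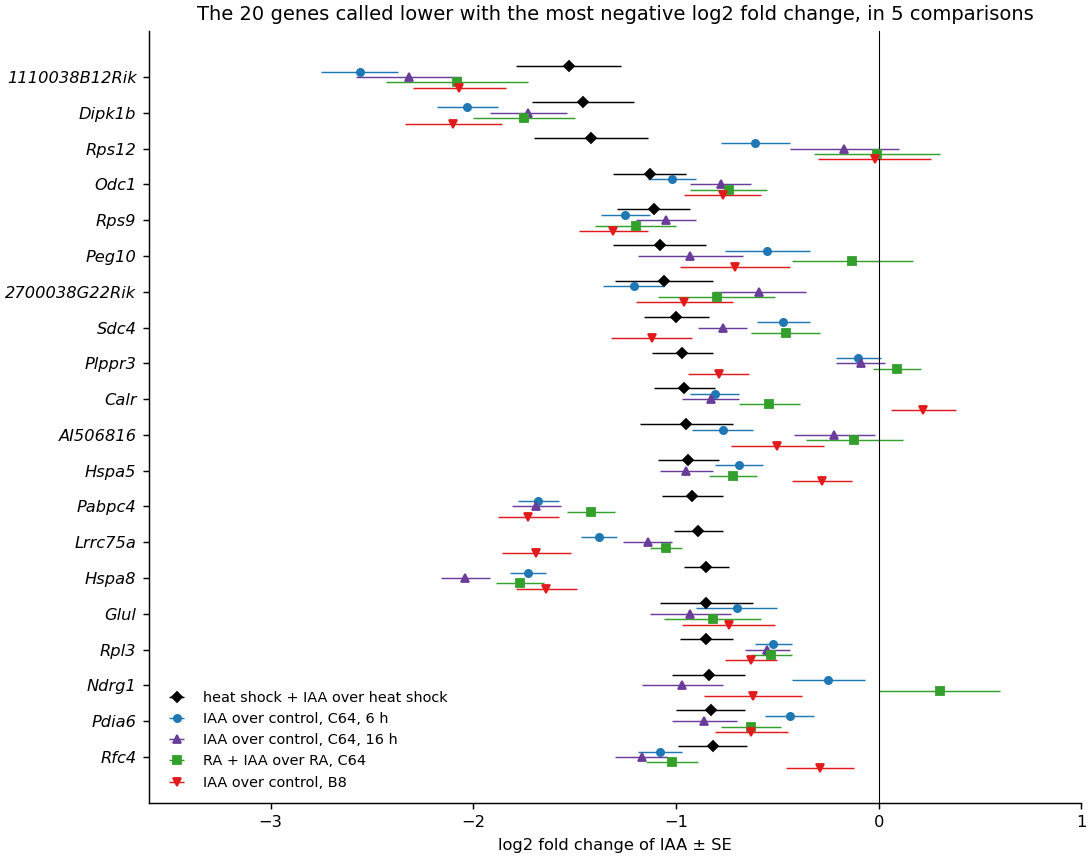
Log2 fold change of IAA over its control, with bars of 1 SE, for the 20 lower genes with the most negative values under heat shock (black) and for the same genes in the 4 other comparisons (colours). Nearly all points lie left of 0, and for Hspa8, Lrrc75a, Pabpc4, Dipk1b and 1110038B12Rik the heat shock point lies right of the other 4.

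Whether the effect of IAA differed between heated and unheated cells was tested as an interaction over the 8 libraries of the run, with the set as a block. No gene was called (0 of 16961 or 0% in edgeR's quasi-likelihood test, where 256 had an unadjusted p under 0.05, and 0 in its likelihood-ratio test, where 364 did). The gene of smallest p was Ahcy, adenosylhomocysteinase, with 22.8 and 17.9 CPM in heat shock + IAA and 21.1 and 17.8 CPM in heat shock, and with 29.8 and 21.7 CPM in unheated IAA cells and 58.8 and 59.4 CPM in unheated control cells. Its interaction was 1.27 ± 0.36 (edgeR adjusted p = 1). For Hspa8 the change was -0.85 under heat shock and -1.73 ± 0.09 without it, with 162 and 163 CPM in unheated IAA cells and 486 and 595 CPM in unheated control cells. Its interaction of 0.89 ± 0.30 did not pass (edgeR adjusted p = 1). Hspd1 likewise had 0.04 under heat shock and -0.65 ± 0.10 without (interaction 0.70 ± 0.28, edgeR adjusted p = 1). Going the other way, Rps12 had an interaction of -0.81 ± 0.42 and Plppr3 of -0.86 ± 0.37 (edgeR adjusted p = 1 for both). Over the lower genes the median interaction was -0.18, a value that the choice of genes low under heat shock itself pushes down.

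Pol II over Tbp itself, 45.3 and 43.8 CPM in heat shock + IAA and 45.4 and 38.3 CPM in heat shock, does not check the depletion, since the degron acts on the protein. Of 10 embryonic stem cell markers 9 were tested and 0 called, and their reads summed to 1030 and 1250 CPM in heat shock + IAA, against 1100 and 1380 in heat shock. Markers of fibroblasts had 110 and 157 CPM in heat shock + IAA, against 100 and 114 in heat shock, with 0 called. Primitive endoderm markers, at 1340 and 1690 CPM in heat shock + IAA, against 1440 and 1490 in heat shock, also had 0 called. Genome reads per E. coli spike-in read were 147 and 39.8 in the heat shock + IAA Pol II libraries (numbered 1 and 2), against 97.8 and 78 in the heat shock libraries. The log2 ratio was 0.59 for number 1 and -0.97 for number 2, so a change of all genes together had no stable direction, and the fold changes above are relative to the other genes. For the TBP CUT&Tag libraries the same ratio was 7 and 3.08 in heat shock + IAA, against 4.14 and 9.12 in heat shock.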

How the data were processed

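Pol II CUT&Tag libraries were analysed from the deposited counts, whole-number read counts per gene. The authors aligned reads to mm10 (GRCm38) with Bowtie2, kept PCR duplicates, subsampled the C64 libraries and ran featureCounts over whole genes on either strand. The deposited read numbers of the mouse genome and of E. coli per library, and the positions in the deposited TATA and TATA-less lists, are other values and were used as given. The tables of unheated control with 6 h IAA, of 16 h IAA, of retinoic acid with and without IAA and of B8 with IAA were used for the other comparisons. The tables of heat shock against control, retinoic acid against control and B8 against C64 were not used here.

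The libraries had 4806399 and 4663424 reads in genes in heat shock + IAA (sets a and b) and 4948769 and 4732101 in heat shock. Counts were scaled by TMM, filtered with filterByExpr (minimum count 20) and tested with edgeR 4.0.16 in R 4.3.3 (quasi-likelihood F test, Benjamini-Hochberg threshold 0.05). Standard errors are Wald errors, intervals are 95%, and CPM use TMM-scaled library sizes. CPM of unheated libraries were scaled within their own 4 libraries. DESeq2 1.42.0 and edgeR's likelihood-ratio test were alternatives. The test was tried on simulated counts.

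The name set was used as a block by the definition of the comparison. It is a feature of the column names, and which numbered sample each column is was not settled. Deviations of same-set libraries were correlated in all 6 pairs of the 4 groups of the run (0.109 to 0.497 over 16961 genes). The other comparisons used the set (6 h), the replicate number (16 h and retinoic acid) or the run (B8) as a block. Replicate libraries differed by more than sampling noise (chi-square per degree of freedom 13.5 in heat shock + IAA and 13 in heat shock), so none was a copy.

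The comparison, gene lists and named genes were chosen with earlier results of these data known. Named genes were up to 15 per direction by size among called genes with non-overlapping groups and a mean CPM of 5 or more (the 5 smallest p where fewer than 5 passed), up to 4 called members per list, the 3 most occupied members of each chaperone list, up to 5 per direction for the interaction, and genes named by the study or in earlier results, of which the text prints a part. Genes outside this rule are given as examples within their list or pair and were chosen after their values were seen. Of 27471 transcripts on the TATA-less list 99.2% were matched to a symbol, and the 14 genes on both lists were left out. Promoters are from RefSeq (GRCm38.p6). Not every neighbouring pair of called genes is reported here.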

Additional observations from a re-analysis of the deposited data

How the results depend on the processing

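The count of called genes was 106 with the set as a block. Without the replicate block it was 0 in the quasi-likelihood test, 0 in the likelihood-ratio test and 0 in DESeq2. The joint fit of 8 libraries called 0 with and without the block. DESeq2 with the block called 31, where the many genes without an adjusted p could not be called. No filter on low counts called 37. Scaling by the spike-in reads of each group called 809 (793 lower and 16 higher), since that scaling moved the median of all genes to -0.14. The likelihood-ratio test and the older quasi-likelihood form with the block called 108 each, RLE factors 84, library size alone 99 (28 higher and 71 lower), a minimum count of 10 called 123 and cyclic loess offsets 89. Leaving out each library in turn called 0 to 1 genes (1110038B12Rik without heat shock + IAA library b and Dipk1b without heat shock library b). The lone library of a group is then assumed to vary like the others. The lower genes kept their sign under every alternative that used all 4 libraries, and 84 of 91 or more kept it when a library was left out. They were chosen as low in these same libraries, so the kept sign is fixed in large part by the choice and is no further evidence. Rps15a ranged over -1.47 to 0.21 when a library was left out, and it reversed to 0.13 and 0.21 without heat shock + IAA library b and to 0.19 without heat shock library a. The interaction called 0 genes under every alternative. The cause of these differences was not tested. Each group had 2 libraries, and changes of several standard errors could go uncalled. Rab26 at -0.69 ± 0.20 and Actb at -0.42 ± 0.13, for example, were not called.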
